A study of Mus musculus with 282 samples.

Results

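The CXB strains are recombinant inbred mice, made by crossing BALB/c with C57BL/6 and inbreeding the descendants until each strain carried a fixed mosaic of both genomes. The mice were chosen by strain label alone: 21 of the 282 hypothalamus libraries of the series came from the 7 CXB strains CXB-11/HiAJ, CXB-12/HiAJ, CXB-13/HiAJ, CXB-3/ByJ, CXB-6/ByJ, CXB-7/ByJ and CXBH, out of 99 strains in all. All were male and fed a high fat diet, with 3 libraries for each strain. They were set beside 3 BALB/cJ and 3 C57BL/6J mice of the same sex and diet. RNA abundance was given as FPKM, fragments per kilobase of transcript scaled to the mapped fragments of the library, for 14079 gene rows, and differences were taken on log2(FPKM + 1).

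At nearly every locus a recombinant inbred strain is homozygous for 1 of its 2 parental alleles, so a gene whose abundance depends on a variant near the gene itself takes 1 of 2 levels across strains, and neighbouring genes tend to share a strain pattern because they are inherited together. The strains of the By lineage descend from the By substrains of BALB/c and C57BL/6, whereas the parents measured here were J substrains. The hypothalamus controls feeding, energy expenditure and the pituitary, and was measured here as bulk tissue, in which fewer cells of a type and less RNA per cell cannot be told apart.

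Before strains were compared, the libraries were compared with each other. Replicates 2 and 3 of CXB-6/ByJ held the same profile, with a standard deviation of the log2 ratio of 2.91e-06 across genes, and differed by a constant factor of 0.995, where every other pair within a CXB or parent strain had 0.243 or more. They differed by less than sampling noise, were averaged and were counted as 1 sample, which left 20 CXB libraries in the tests. The library labelled CXB-7/ByJ replicate 3 did not resemble its strain. Its highest Pearson correlation with a library of its own label, over the 500 genes with the largest differences between all strains of the series, was -0.0362, and its closest libraries were the 2 of BXA-12/PgnJ, at 0.869 and 0.828. Of 144 genes at which its parental type could be set against its strain mates, 72 (50%) had the opposite type, against 0 to 10 genes in every other CXB library. CXB-3/ByJ replicate 3 stood apart in another way: its summed FPKM was 463433 against 322550 to 354195 elsewhere, and Malat1, a nuclear long non-coding RNA, was at 56.4 FPKM against 487 and 413 in its strain mates. It was still closest to its own strain, at 0.597. Results are therefore given with all 20 libraries and again with these 2 left out, a set of 18.

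**Figure D1:**
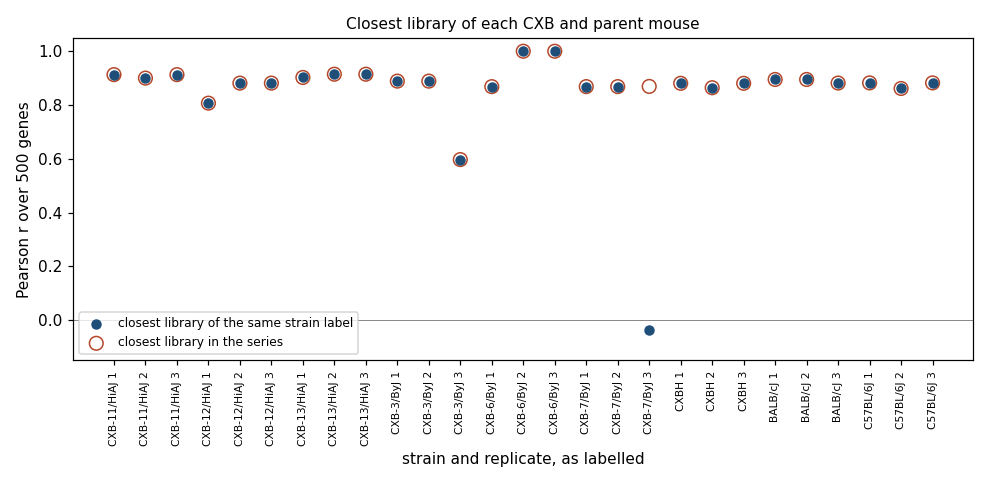
Closest library of each CXB and parent mouse by Pearson correlation over 500 genes (y axis, no unit), with 1 position per library on the x axis. Filled points are the best match within the same strain label and open circles the best match in the whole series. They coincide for 26 of 27 libraries, and the library labelled CXB-7/ByJ replicate 3 has its filled point at -0.0362.

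Dissection also varied. Summed FPKM of 5 choroid plexus markers ran from 12.8 to 1336 across CXB libraries, and of 6 anterior pituitary markers from 1.61 to 118. For 12 hypothalamic markers it ran from 1015 to 1789, apart from 3007 in CXB-3/ByJ replicate 3, whose total FPKM stood apart too. For the pituitary markers CXB-7/ByJ had 1.61 to 4.41 and CXBH 19.8 to 118. For 5 thalamus markers the sum ran from 43.1 to 317, with 43.1 to 116 in CXB-12/HiAJ. Of these markers 0 were called between strains in limma with all libraries or with the 2 left out, where all genes gave 3.08% and 6.34%. At an unadjusted p below 0.05 the counts with all libraries were 0 of 5, 2 of 6 and 0 of 12, and 2 of 5 for thalamus. All genes gave 12.8% at that threshold. A fit that held the pituitary and choroid plexus levels constant called 302 genes between the CXB strains, against 434 in the fit without them. Thalamus levels were not held constant. Prss41, Erdr1, Gm10263, Gm26331 and Ifi27l2a were among the genes that lost their calls in the fit with these levels.

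Among the 7 CXB strains, 434 of 14079 genes (3.08%) differed, by a moderated F test in limma at a Benjamini-Hochberg adjusted p below 0.05. With the 2 libraries left out the count was 893 (6.34%), and 427 genes were called in both. It was 571 (4.06%) without the library labelled CXB-7/ByJ replicate 3 alone, 677 (4.81%) without CXB-3/ByJ replicate 3 alone, and 584 (4.15%) with both CXB-6/ByJ columns kept as separate mice. Of the 434 genes 261 spanned at least 1 log2 unit between the lowest and highest strain mean, and the median span was 1.13. The 2 parents differed at 493 genes (3.5%), of which 227 were higher in BALB/cJ and 266 in C57BL/6J. The parental test used none of the CXB mice. Of its 493 genes, 229 (46.5%) were also called among CXB strains, and these were 52.8% of the CXB calls. With the 2 libraries left out the shared genes numbered 307, or 62.3% of parental and 34.4% of CXB calls.

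The share of a gene's variance that lay between CXB strains, an intraclass correlation that is near 0 when strains differ no more than mice within a strain, had a median of 0.0513 over all genes and 0.585 over the genes that differed between the parents. Without the 2 libraries these medians were 0.147 and 0.789. The share reached at least 0.9 in 55 genes, and in 199 without the 2 libraries.

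**Figure D2:**
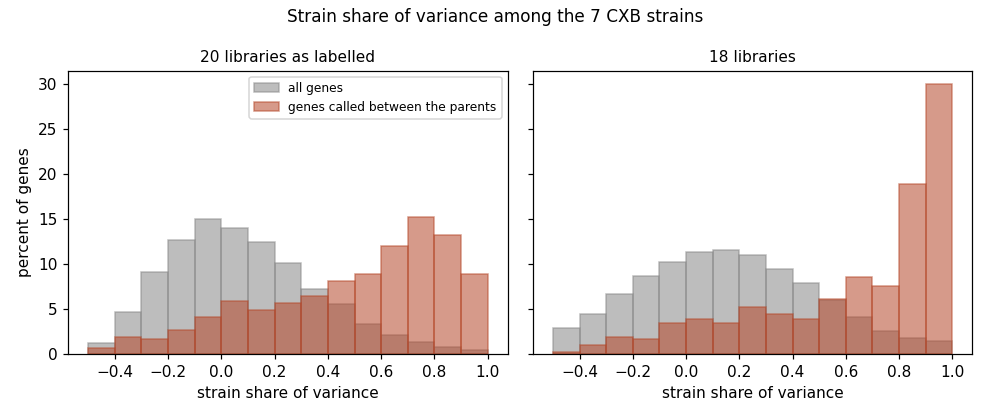
Histograms of the share of variance between the 7 CXB strains (x axis, no unit) for all genes and for genes that differed between BALB/cJ and C57BL/6J. The y axis gives the percent of the genes of each group. The genes that differed between the parents sit at higher shares, with a median of 0.585 against 0.0513 for all genes.

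Many genes took the level of 1 parent in each strain. For 190 genes with a parental difference of at least 1 log2 unit, each strain mean was placed on a scale from 0 at C57BL/6J to 1 at BALB/cJ. Every strain lay outside 0.25 to 0.75 at 65 of these genes, and at 122 without the 2 libraries. These are called two-level genes here. The share of the 190 genes at which a strain was nearer to BALB/cJ was 52.1% in CXB-11/HiAJ, 44.7% in CXB-12/HiAJ, 56.3% in CXB-13/HiAJ and 57.9% in CXB-3/ByJ. It was 33.7% in CXB-6/ByJ, 43.7% in CXB-7/ByJ and 54.7% in CXBH. CXB-6/ByJ had the lowest share of BALB/cJ-like genes. In CXB-7/ByJ 99 genes (52.1%) lay at intermediate positions, and 30 (15.8%) did once the third library was left out.

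Acp1, a low molecular weight protein tyrosine phosphatase on chromosome 12 (mm10, 30893326 to 30911612), was a two-level gene in every library. Its FPKM was 3.58, 3.83 and 3.42 in CXB-11/HiAJ, 3.77, 3.55 and 3.34 in CXB-3/ByJ, 3.69, 3.95 and 3.61 in CXB-7/ByJ and 2.83, 3.39 and 3.34 in CXBH. It was 10.6, 10.2 and 12.01 in CXB-12/HiAJ, 10.4, 9.77 and 10.6 in CXB-13/HiAJ and 10.4 and 9.66 in CXB-6/ByJ. BALB/cJ had 3.26, 3.60 and 4.22 and C57BL/6J 9.84, 8.70 and 8.63, so that 4 strains sat with BALB/cJ and 3 with C57BL/6J and the 2 sets of libraries did not overlap. The strain means spanned 1.51 log2 units (limma adjusted p = 1.44e-09).

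**Figure D3:**
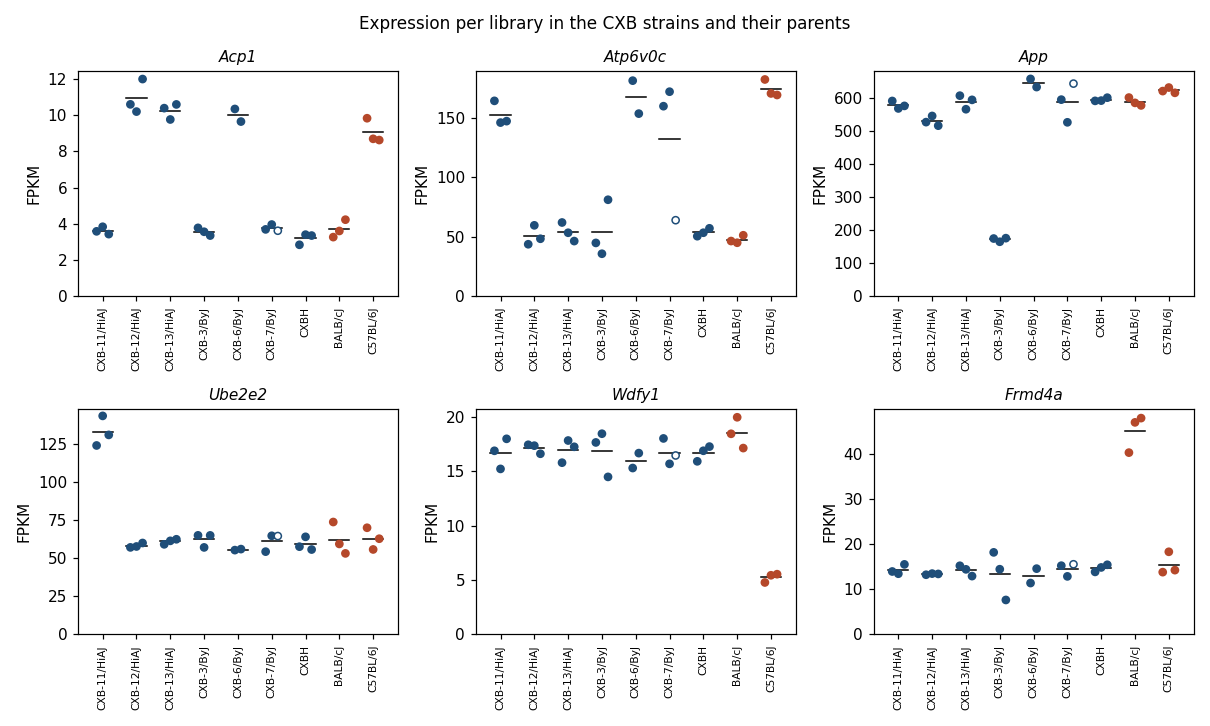
FPKM in each CXB and parent library (y axis) by strain (x axis) for Acp1, Atp6v0c, App, Ube2e2, Wdfy1 and Frmd4a, where bars are strain means and the open circle is the library labelled CXB-7/ByJ replicate 3. Acp1 and Atp6v0c take 2 levels that match the parents, App is low in CXB-3/ByJ, Ube2e2 is high in CXB-11/HiAJ, Wdfy1 is low in C57BL/6J, and Frmd4a is high in BALB/cJ.

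Rpl29, a protein of the large ribosomal subunit (chromosome 9, 106429454 to 106431569), was at 38.8 to 51.0 FPKM in the 6 libraries of CXB-11/HiAJ and CXBH and at 7.46 to 15.5 in the other 14 (adjusted p = 1.09e-08). BALB/cJ had 10.8, 8.88 and 9.51 and C57BL/6J 49.1, 41.0 and 38.1. Klhl9, an adaptor of a ubiquitin ligase, was called too, with a narrower span of 0.91 log2 units (adjusted p = 1.53e-05), and was lower in CXB-11/HiAJ, CXB-3/ByJ, CXB-6/ByJ and CXBH. Evpl, which encodes the cornified envelope protein envoplakin, was at 1.52 to 2.54 FPKM in CXB-11/HiAJ, CXB-3/ByJ and CXB-7/ByJ. The other 4 strains had 0.227 to 0.623 (adjusted p = 9.99e-07). Mcc differed by 1.19 log2 units (adjusted p = 1.64e-06) and was highest in CXB-12/HiAJ and CXBH. Ribosomal protein genes have many near-identical processed pseudogenes, so the level of Rpl29 may hold reads that could be placed elsewhere.

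The same holds for the genes with the widest spans, which were mostly predicted genes and pseudogenes. AK157302, which had the largest strain share, was at 5.38 to 7.003 FPKM in 5 strains and at 0.245 to 0.378 in CXB-12/HiAJ and CXB-6/ByJ, while BALB/cJ had 7.69, 6.77 and 5.70 and C57BL/6J 0.968, 0.472 and 0.111. Gm4076 spanned 7.32 log2 units (adjusted p = 1.27e-06): CXB-12/HiAJ had 62.8, 317 and 143 FPKM, CXB-7/ByJ 231, 166 and 108, CXBH 125, 189 and 150, and no other CXB library exceeded 14.1. Pisd-ps1, Pisd-ps2, Gm4737, Gm7292, Gm5506, Gm9825, Gm6472, Gm10260, Gm8730, Gm26331 and Rps3a2 were also among the genes with the largest strain share, span or parental difference. Gm26331 lost its call when any 1 library of 5 strains was left out, and Rps3a2 with several single libraries left out.

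**Figure D4:**
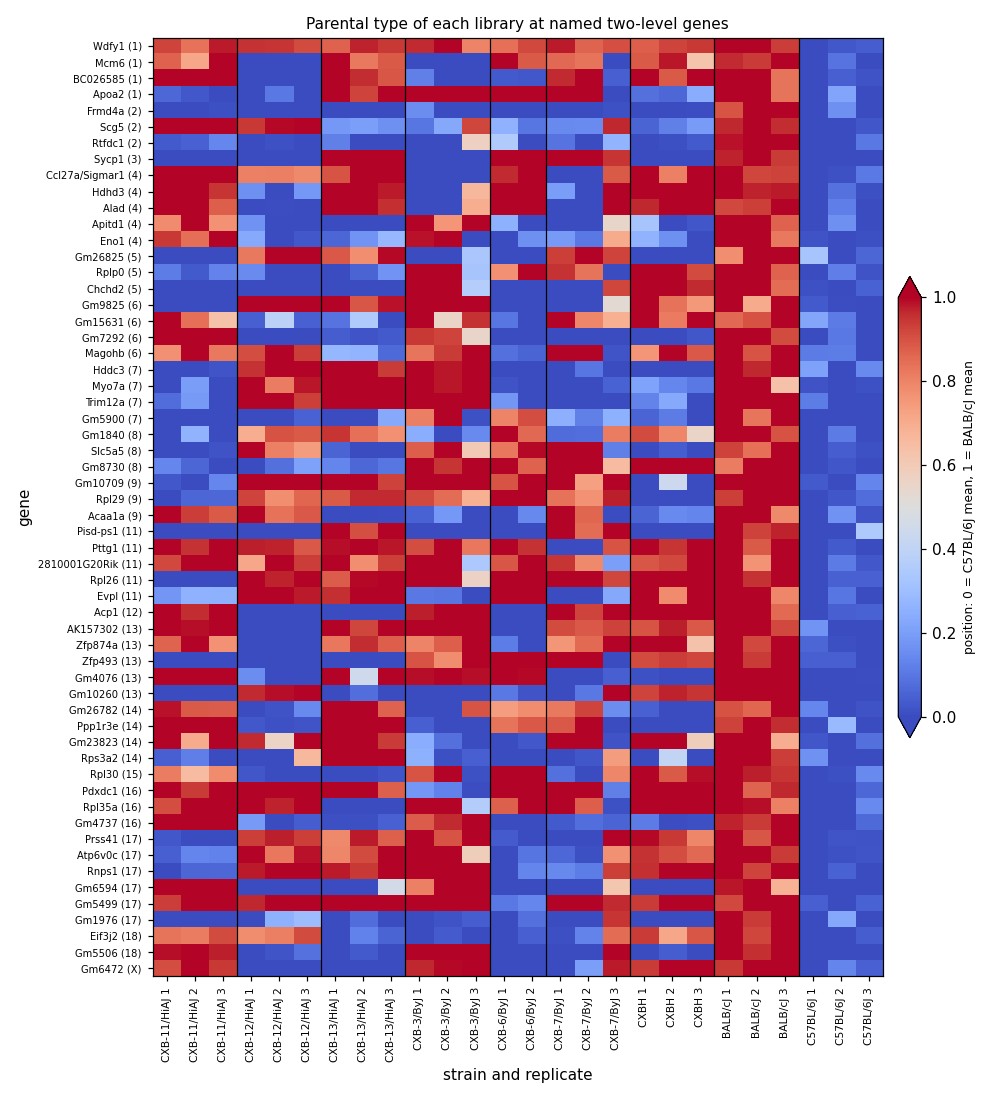
Position of each CXB and parent library (columns) on the parental scale for named two-level genes (rows), where 0 is the C57BL/6J mean and 1 the BALB/cJ mean. Strains take 1 parental colour for a gene, and the library labelled CXB-7/ByJ replicate 3 departs from its 2 strain mates at many genes.

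Nearby two-level genes tended to have the same strain pattern. With the 2 libraries left out, 9 of 28 pairs within 5 Mb of each other (32.1%) had the same pattern across all 7 strains, against 110 of 4866 pairs on different chromosomes (2.26%). With all libraries the values were 3 of 7 (42.9%) and 30 of 1238 (2.42%). At 5 to 20 Mb the share was 3.57% without the 2 libraries and 20% with all, and at 20 to 50 Mb 6.52% and 11.1%. In both sets the matching pairs held XLOC_024435 and XLOC_025575, which overlap on chromosome 4. They also held XLOC_016573 and XLOC_016574, which lie side by side on chromosome 17. Whether these unnamed rows are separate genes was not tested. Pairs of genes share members and are not independent, so no test was made.

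A block with 1 shared pattern lay on chromosome 17, between 23841108 and 24426006. It held Prss41, a serine protease, Atp6v0c, the membrane ring subunit of the vacuolar proton pump, and Rnps1, an RNA binding protein of the exon junction complex. Atp6v0c was at 164, 146 and 147 FPKM in CXB-11/HiAJ, 181 and 154 in CXB-6/ByJ and 160 and 172 in the first 2 libraries of CXB-7/ByJ, and C57BL/6J had 182, 171 and 169. Libraries of CXB-12/HiAJ, CXB-13/HiAJ, CXB-3/ByJ and CXBH had 35.5 to 81.0, the highest being CXB-3/ByJ replicate 3, and BALB/cJ 46.2, 44.8 and 51.1. The library labelled CXB-7/ByJ replicate 3 had 63.8. The adjusted p was 0.00268 for Atp6v0c with all libraries and 1.16e-07 without the 2, and for Rnps1 it was 0.000348 and 5.72e-08. Prss41 ran the other way, with 3.49 to 6.94 FPKM in the 4 strains where Atp6v0c was low and 0.0235 to 0.328 in CXB-11/HiAJ, CXB-6/ByJ and the first 2 libraries of CXB-7/ByJ. Its adjusted p was 0.00725 and 1.54e-08.

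A pair on chromosome 4, from 62494737 to 62520642, also moved together. Alad makes porphobilinogen, an early step of haem synthesis, and Hdhd3 is a neighbouring haloacid dehalogenase-like gene. Alad was at 32.6 to 45.9 FPKM in CXB-11/HiAJ, CXB-13/HiAJ, CXB-6/ByJ and CXBH, at 12.5, 16.4 and 15.3 in CXB-12/HiAJ, and at 13.7, 11.9 and 28.3 in CXB-3/ByJ. In CXB-7/ByJ it was 12.1 and 15.4, with 40.1 in the third library. BALB/cJ had 33.6, 34.04 and 40.3 and C57BL/6J 15.6, 17.9 and 15.5. The adjusted p was 0.0465, and 3.98e-07 without the 2 libraries, which had lain at 28.3 and 40.1. Hdhd3 had the same pattern, with adjusted p values of 0.0170 and 1.59e-06.

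On chromosome 7, Hddc3 (at 80343046), Myo7a (at 98051060) and Trim12a (at 104299897) shared a pattern. In it CXB-12/HiAJ, CXB-13/HiAJ and CXB-3/ByJ were nearer to BALB/cJ. Hddc3, a predicted guanosine polyphosphate hydrolase, was at 31.6 to 77.6 FPKM in those 3 strains and 7.73 to 14.2 in the other 4 (adjusted p = 3.72e-05). Trim12a, a member of the TRIM5 group, was listed at 0 in 8 of their 9 libraries and at 0.0791 in the other. It was at 1.38 to 5.50 FPKM in the remaining 4 strains, listed at 0 in BALB/cJ and at 1.73, 2.49 and 2.14 in C57BL/6J. Gm5900, at 104949176, had another pattern without the 2 libraries, with CXB-3/ByJ and CXB-6/ByJ nearer to BALB/cJ.

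On chromosome 5, Rplp0 at 115559463 and Chchd2 at 129881156 differed in pattern at 2 strains. Rplp0 encodes a ribosomal stalk protein and Chchd2 a mitochondrial protein. Both were at the BALB/cJ level in CXB-3/ByJ and CXBH and at the C57BL/6J level in CXB-11/HiAJ, CXB-12/HiAJ and CXB-13/HiAJ. Rplp0 was also low in CXB-6/ByJ, at 46.7 and 35.6 FPKM, and in the first 2 libraries of CXB-7/ByJ, at 38.8 and 43.8. Chchd2 was at 207 and 214 in those 2 libraries of CXB-7/ByJ, near the C57BL/6J values of 198, 220 and 188. Chchd2 differed between strains with an adjusted p of 0.00191, and 2.73e-08 without the 2 libraries. These genes have processed pseudogenes, as Rpl29 does.

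Copa and Apoa2 lie on distal chromosome 1. Copa, a coat protein of Golgi vesicles (172082204 to 172122515), was at 68.7 to 73.2 FPKM in CXB-11/HiAJ, CXB-12/HiAJ and CXBH and at 42.3 to 47.7 in CXB-13/HiAJ, CXB-6/ByJ and the first 2 libraries of CXB-3/ByJ and CXB-7/ByJ. The third libraries of the last 2 strains had 57.8 and 71.6. The adjusted p was 0.0248, and 6.99e-07 without them. Apoa2, an apolipoprotein of high density lipoprotein, was at 1.62 to 3.45 in the first 3 strains and listed at 0 or at 0.200 in the others, apart from 2.75 in the library labelled CXB-7/ByJ replicate 3. Of 12 measured genes listed from this region, 1 was called, and 4 without the 2 libraries, where all genes gave 3.08% and 6.34%. On chromosome 2, Scg5, the 7B2 chaperone of prohormone convertase 2, was at 337 to 388 FPKM in CXB-11/HiAJ and CXB-12/HiAJ. It was at 158 to 188 in the other strains, except for 331 and 344 in the 2 libraries that stood apart, and BALB/cJ had 344, 377 and 342 against 147, 151 and 154 in C57BL/6J.

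Other genes set 1 strain apart from all the rest while the parents were not called. This group was chosen after the values were seen, as called genes with a gap of at least 1 log2 unit to the nearest strain, and held 11 genes, of which 4 fell to CXB-11/HiAJ, 3 to CXB-3/ByJ, 2 to CXB-7/ByJ, 1 to CXB-12/HiAJ and 1 to CXB-6/ByJ. Of these, Gm15564 and Igtp/Irgm2 lay near the threshold between the parents, with adjusted p values of 0.0557 and 0.0552. Without the 2 libraries it held 34, of which 26 fell to CXB-7/ByJ, a strain that then rested on 2 libraries.

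App, the amyloid precursor protein gene (chromosome 16, 84954440 to 85173707), was lowest in CXB-3/ByJ in all 3 libraries, at 174, 164 and 175 FPKM, a mean of 171 ± 6.0 (SD, n = 3). The other 17 CXB libraries had 517 to 658 with a median of 592. BALB/cJ had 602, 586 and 578 and C57BL/6J 621, 632 and 616, so that the CXB-3/ByJ libraries lay below every other library of either kind. The span was 1.91 log2 units (adjusted p = 1.04e-09, and 2.53e-09 without the 2 libraries). Tmem63c, a membrane channel gene on chromosome 12, was also low in CXB-3/ByJ, at 4.87, 5.84 and 5.26 FPKM against 11.3 to 14.9 in the other CXB libraries (adjusted p = 7.42e-06).

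CXB-11/HiAJ stood apart at Ube2e2, a ubiquitin conjugating enzyme on chromosome 14 (18573575 to 18894267), with 124, 143 and 131 FPKM against 54.1 to 64.8 in the other 17 libraries (adjusted p = 2.19e-06). BALB/cJ had 73.5, 59.2 and 53.0 and C57BL/6J 69.8, 55.5 and 62.6. It was also high for Ubtd1, at 19.3, 20.9 and 17.5 FPKM, where no other CXB library exceeded 8.83. Pla2g5 and Otud3 lie side by side on chromosome 4, from 138799244 to 138913945. Pla2g5, a secreted phospholipase, was high in CXB-11/HiAJ at 7.56, 5.65 and 5.68 FPKM against 0.458 to 2.37 elsewhere (adjusted p = 6.45e-06). Otud3, a deubiquitinase, was low in the same strain at 0.594, 0.956 and 0.768 against 2.61 to 4.72 (adjusted p = 1.48e-05). Etohi1 was high in CXB-6/ByJ, at 9.97 and 12.4 FPKM (adjusted p = 0.0316). Pald1, a phosphatase domain gene, was at 0.327 and 0.297 FPKM in the first 2 libraries of CXB-7/ByJ but 3.27 in the third, and was called only without the 2 libraries that stood apart (adjusted p = 0.103 with all 20 libraries and 6.47e-07 without the 2).

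Arl2bp, which encodes a protein that binds the GTPase ARL2, showed 2 levels although the parents were not called. On chromosome 8 (94666755 to 94674417) it was at 69.2, 66.0 and 65.2 FPKM in CXB-11/HiAJ and 68.3, 67.6 and 64.9 in CXB-13/HiAJ, near BALB/cJ at 61.8, 69.1 and 64.8 and C57BL/6J at 68.6, 63.9 and 69.2. CXB-12/HiAJ, CXB-6/ByJ, CXBH and the first 2 libraries of CXB-3/ByJ and CXB-7/ByJ had 28.0 to 34.1, and the third libraries had 45.9 and 68.3. The adjusted p was 0.00905, and 3.47e-08 without the 2. BALB/cJ lay 0.67 ± 0.16 log2 units above the mean of the CXB strains (limma contrast, SE, adjusted p = 0.0323). In all, 205 genes were called among CXB strains with no parental call, and 586 without the 2 libraries. Erdr1, Gm22009, Gm10263 and Gm13999 were, with Pla2g5 and 3 interferon-stimulated genes, those with the largest spans, and Erdr1 and Gm10263 lost their calls when most single libraries were left out.

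In CXB-7/ByJ the first 2 libraries were high and the third was not for interferon-stimulated genes, which cells switch on after type I interferon binds its receptor and which hold antiviral proteins. Of 13 measured genes of a list of 26, 3 were called with all libraries (Ifi27l2a, Bst2 and Ifit3), 12 without the 2 libraries and 0 between the parents, where all genes gave 3.08%, 6.34% and 3.5%. The median strain share of the list was 0.467, and 0.830 without the 2 libraries, against 0.0513 and 0.147 over all genes. Without the 2 libraries CXB-7/ByJ rested on 2 mice. Whether their level is a trait of the strain or of these 2 mice was not tested. Replicates 1 and 2 of CXB-7/ByJ were the 2 highest of the 20 CXB libraries at 12 of the 13 genes, the exception being Irf9/Rnf31. Between the parents, 4 of the 13 had an unadjusted p below 0.05, against 18.3% of all genes. The summed FPKM of 4 striatum markers was 139.9 in CXB-7/ByJ replicate 2 and 39.0 in replicate 1, against 30.5 to 46.8 in the other CXB libraries, and its part in the interferon result was not tested.

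Oasl2, an antiviral oligoadenylate synthetase-like protein, was at 16.7 and 36.9 FPKM in the first 2 libraries of CXB-7/ByJ and 2.36 in the third, against 1.052 to 5.15 in the other 17 CXB libraries. Isg15, a ubiquitin-like modifier, was at 9.99, 16.1 and 2.84 against 1.44 to 4.37. Bst2, the tetherin that holds budding virus at the cell surface, was at 17.7, 25.1 and 4.84 against 1.52 to 4.53. Ifi27l2a was at 25.04, 23.8 and 1.93 FPKM, where the highest other CXB library had 2.87, and Ifi27 and Lgals3bp had the same order. With all 20 libraries the limma adjusted p was 0.156 for Oasl2, 0.207 for Isg15, 0.00905 for Bst2 and 0.0481 for Ifi27l2a, and without the 2 libraries 2.13e-05, 0.000353, 3.57e-06 and 8.55e-06. Bst2 lost its call without CXB-7/ByJ replicate 1, and Ifi27l2a when any 1 library other than the library labelled CXB-7/ByJ replicate 3 was left out. Ifit3 varied among the other strains too, with 7.57, 11.99 and 3.90 in CXB-7/ByJ, 2.81 to 5.99 in CXB-13/HiAJ and CXB-3/ByJ and 0.627 to 2.45 in CXB-11/HiAJ, CXB-12/HiAJ and CXB-6/ByJ.

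**Figure D5:**
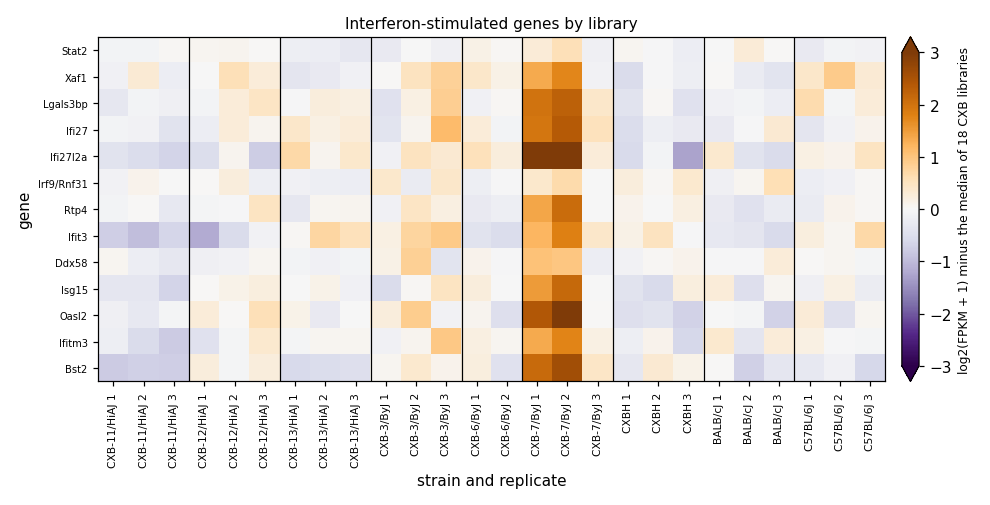
Measured interferon-stimulated genes (rows) in each CXB and parent library (columns), coloured by log2(FPKM + 1) minus the median over 18 CXB libraries. CXB-7/ByJ replicates 1 and 2 are the highest CXB columns at 12 of the 13 genes, and the library labelled CXB-7/ByJ replicate 3 is near the other strains.

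The promoters of these genes were searched for the letters to which interferon-activated factors are known to bind. RefSeq (GRCm38.p6) gave a window of 300 bases around the start, most of it upstream, for 10 of the 13 measured genes. Of these 6 held the core of the interferon-stimulated response element, GAAA, then 2 bases of any kind, then GAAA, searched on both strands with overlaps allowed, where 3.99% of 27025 genes and 3.44% of 32851 windows did. The 6 were Bst2, Ddx58, Ifit3, Ifitm3, Isg15 and Stat2, while Irf9, Lgals3bp, Oasl2 and Xaf1 held no match. As the list holds known interferon-stimulated genes, a higher share than over all genes is no result of these data. Capitals mark the matches in the 3 windows that follow, chosen from the 6 and written 5′ to 3′ on the strand of the gene. Isg15 is at chr4:156200769-156201068 (-), Ifit3 at chr19:34583279-34583578 (+) and Bst2 at chr8:71537423-71537722 (-). A match is a description of the letters and not a sign of a factor bound there.
Isg15: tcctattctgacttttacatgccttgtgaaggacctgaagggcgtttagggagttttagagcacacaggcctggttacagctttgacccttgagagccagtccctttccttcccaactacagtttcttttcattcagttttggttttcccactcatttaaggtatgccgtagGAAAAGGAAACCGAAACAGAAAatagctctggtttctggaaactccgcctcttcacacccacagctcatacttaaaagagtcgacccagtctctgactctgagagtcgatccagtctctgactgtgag
Ifit3: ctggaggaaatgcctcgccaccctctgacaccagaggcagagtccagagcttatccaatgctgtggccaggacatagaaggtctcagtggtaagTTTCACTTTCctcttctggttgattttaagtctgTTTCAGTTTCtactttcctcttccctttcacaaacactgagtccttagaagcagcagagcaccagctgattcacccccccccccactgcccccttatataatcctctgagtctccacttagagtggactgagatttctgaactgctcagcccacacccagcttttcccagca
Bst2: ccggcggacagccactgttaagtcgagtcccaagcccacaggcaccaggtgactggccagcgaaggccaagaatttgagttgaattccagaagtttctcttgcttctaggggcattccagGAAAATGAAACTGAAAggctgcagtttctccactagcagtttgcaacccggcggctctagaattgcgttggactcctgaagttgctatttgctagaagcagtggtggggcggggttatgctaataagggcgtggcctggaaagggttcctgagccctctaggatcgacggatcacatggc

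Of 21 measured genes of the MHC region 5 were called, and 10 without the 2 libraries, where all genes gave 3.08% and 6.34%. B2m and some class I genes were high in the same 2 libraries of CXB-7/ByJ. B2m, the light chain of MHC class I, was at 237 and 248 FPKM in the first 2 libraries of CXB-7/ByJ and 58.5 in the third, against 37.6 to 117 in the other 17. H2-K1, a class I heavy chain, was at 56.7, 62.6 and 9.95 against 5.76 to 21.2, and H2-D1 at 69.6, 85.5 and 20.2. H2-K1 was called only without the 2 libraries (adjusted p = 0.151 with all 20 and 4.48e-06 without them), as was B2m (0.102 and 1.53e-05). H2-Q4 was called in both (0.00283 and 0.000145). The class II genes H2-Aa, H2-Ab1, H2-Eb1 and H2-DMa were not called in either, with adjusted p values without the 2 libraries of 0.564, 0.833, 0.0749 and 0.276. Class I genes resemble each other closely, so their reads may be shared among them.

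Of 9 measured microglia markers 3 were called, Csf1r, C1qa and Cx3cr1, and 6 without the 2 libraries, where all genes gave 3.08% and 6.34%. Csf1r, the receptor on which microglia depend, was at 20.9, 23.7 and 17.8 FPKM in CXB-7/ByJ and 16.2 to 19.0 in CXB-11/HiAJ. CXBH had 9.31 to 10.1 and CXB-12/HiAJ 13.6, 8.20 and 8.27 (adjusted p = 0.00180). The summed level of the 9 markers was 226 to 294 FPKM in CXB-7/ByJ and 169 to 196 in CXBH. It reached 366 in CXB-3/ByJ replicate 3, against 191 and 190 in its strain mates. The part of the summed level in the interferon result was not tested.

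Genes that govern feeding and energy balance were read against the 3.08% of all genes called, and 6.34% without the 2 libraries, at which lists of this size hold few calls. Of 29 measured hypothalamic peptides 0 were called, and 1, Trh, without the 2 libraries. Trh, the thyrotropin-releasing hormone, was at 69.3, 51.9 and 59.9 FPKM in CXB-12/HiAJ and 41.5, 41.8 and 32.0 in CXB-13/HiAJ, with an adjusted p of 0.362 and, without the 2 libraries, 0.0461. Of 26 receptors and signalling genes of energy balance, 0 were called, and 1 without the 2 libraries, the orexin receptor Hcrtr1 (adjusted p = 0.330 and 0.0205). At an unadjusted p below 0.05, 7 of the peptides and 2 of the 26 genes were counted with all libraries, against 1799 of all 14079 genes, and 11 and 3 without the 2 libraries, against 2812. The limma test called 0 of 13 GABA-A receptor subunits, 15 glucocorticoid-responsive genes, 17 circadian clock genes and 24 rodent zinc finger genes, with or without the 2 libraries, and with all libraries 2, 0, 3 and 1 of them had an unadjusted p below 0.05. Of 21 immediate early genes 0 were called, and 1, Btg2, without the 2 libraries.

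In a last group 1 parent differed from the mean of the 7 CXB strains, which left room for single strains near that parent. A parent counted as outside the other strains by any margin between means. C57BL/6J differed from the mean of the 7 CXB strains at 156 genes (1.11%), or 78 to 90 when any 1 C57BL/6J library was left out, and at 87 (0.618%) its mean lay outside all of the CXB strains and BALB/cJ. BALB/cJ differed at 192 genes (1.36%), or 79 to 125 when any 1 BALB/cJ library was left out, and at 119 (0.845%) it lay outside the others. Without the 2 libraries these counts were 431 (3.06%), 247 (1.75%), 442 (3.14%) and 269 (1.91%). Contrasts of both parents were taken against the same CXB libraries.

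Wdfy1, which encodes an endosomal adaptor (chromosome 1, 79702262 to 79761769), was at 4.77, 5.43 and 5.53 FPKM in C57BL/6J, against 14.5 to 18.5 in the 20 CXB libraries and 18.5, 19.996 and 17.2 in BALB/cJ. C57BL/6J fell below the CXB mean by 1.51 ± 0.07 log2 units (SE, adjusted p = 4.71e-11), and the CXB strains were not called (adjusted p = 0.994). Nnt, the mitochondrial transhydrogenase, was at 6.00, 5.95 and 6.05 in C57BL/6J and 9.84 to 13.0 in CXB mice, a difference of -0.82 ± 0.07 (adjusted p = 2e-07). Both genes are known to differ between C57BL/6J and other C57BL/6 substrains. Of 5 measured genes on a list of such substrain genes limma called 0 between the CXB strains, where all genes gave 3.08%. At an unadjusted p below 0.05 the count was also 0, against 12.8% of all genes, shares at which 5 genes hold few calls. Gabra2, a GABA-A receptor subunit counted at 1 locus with Gabrg1, also lay below the CXB mean in C57BL/6J, by -0.54 (adjusted p = 0.0400). The other 2 genes of the list were not called, Fgfbp3 at -0.03 (adjusted p = 0.984) and Ide at -0.04 (adjusted p = 0.969).

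Frmd4a, a scaffold of cell polarity, stood apart in BALB/cJ (chromosome 2, 4017717 to 4614388). It was at 40.3, 47.0 and 48.0 FPKM in BALB/cJ, against 7.60 to 18.2 in CXB mice and 13.8, 18.3 and 14.2 in C57BL/6J, a contrast of 1.64 ± 0.14 (adjusted p = 3.4e-07). Rtfdc1 was at 42.3, 42.8 and 43.2 in BALB/cJ, while CXB mice had 17.6 to 31.2. With Frmd4a, the genes Gm1976, Gm10260, Gm4076, Pisd-ps2, Erdr1, Fcrls and Ly6a were the 8 named BALB/cJ genes of largest contrast. Ly6a lost its call when any BALB/cJ library was left out. Among the 8 genes, Gm4076 lay nearer to BALB/cJ in 4 CXB strains. Without the 2 libraries, Gm10260 did so in CXB-12/HiAJ and CXBH.

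In C57BL/6J the genes with the largest contrasts also held Pttg1, Zbed3, Gm8730, Gm5499, Gm10709, Gm15564 and Abhd1. At Gm8730, Gm5499 and Gm10709, all two-level genes, at least 1 CXB strain was nearer to C57BL/6J. Pttg1, or securin, which inhibits the enzyme that frees sister chromatids, was at 35.3, 30.1 and 35.1 FPKM in C57BL/6J. It was at 33.8 and 37.6 in the first 2 libraries of CXB-7/ByJ, with 1.40 in the third. The other CXB libraries did not exceed 1.96, so that 1 CXB strain had the C57BL/6J level and Pttg1 stood apart as a C57BL/6J gene only with the labels as given. Zbed3 was high in C57BL/6J, at 15.01, 19.9 and 15.8, and also in CXBH replicate 1 (17.6) and BALB/cJ replicate 3 (13.1), against 3.82 to 6.35 in the rest of the CXB libraries.

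The remaining lists were small, and all genes gave 3.08% and 6.34% with and without the 2 libraries. At an unadjusted p below 0.05 all genes gave 12.8% with all libraries. Of 7 measured Ly6 genes 1 was called, and 2 without the 2 libraries, and of 9 genes on chromosome 15 the counts were 0 and 1. Marker lists gave 0 and 1 of 5 for blood and 0 and 1 of 6 for astrocytes. For thalamus (5 genes), striatum (4), cortex and hippocampus (2), oligodendrocytes (8), ependyma (6), endothelium (5) and the Y chromosome (4) and for the 1 measured gene listed as differing between BALB/c substrains, limma called 0 genes in both sets, while 2, 1, 0, 3, 1, 1, 0 and 0 had an unadjusted p below 0.05 with all libraries.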

How the data were processed

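RNA from the hypothalamus was sequenced as paired-end reads from TruSeq libraries that do not mark strand. Per the labels and the study's methods the authors used STAR 2.3.1 for alignment (build mm10), Cufflinks 2.2.0 for assembly and Cuffnorm 2.2.1 for the FPKM. The deposited FPKM values are normalized, so no interval from counts is given, and the mapped reads per library that the study lists were not used here. mm10 derives from C57BL/6J, and how far reads with BALB/c alleles aligned less often was not tested. FPKM were analysed as log2(FPKM + 1) with limma 3.58.1 (R 4.3.3), with Benjamini-Hochberg adjustment over 14079 genes at 0.05. The pseudocount understates changes of low genes, and p-values set differences between strain means against the spread between these samples within strains. The design had assumed 21 CXB libraries, and 20 entered the fits because 2 columns of CXB-6/ByJ were one profile. Of the gene rows 639 carried at least 2 names at one locus. Groups followed the strain labels.

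Named genes had a symbol and a mean of at least 1 FPKM, and were the 12 called genes with the largest strain share, the 12 with the largest span, the 12 called in both tests with the largest parental difference, the 8 with the largest span outside the parental range, the 8 of each parent apart, and called members of the gene lists. Some genes that met these rules are not reported here. Members and lists were chosen with earlier results of these data known. Tested on simulated data with 14079 genes, the CXB test recovered 92% of 2-fold changes (log2 of 1) and 99% of those with log2 of 2, with 5.45% false calls. The noise was normal and independent, and no simulated library stood apart. Changes were put in several strains at once, at genes with a mean log2 value of at least 1. Recovery for lower genes, for 1 strain apart or with libraries that stand apart was not tested. Alternatives were a pseudocount of 0.1, a minimum mean FPKM of 1, quantile normalization, a trended robust prior, marker covariates, all strains in one fit, and leaving out each library. Leaving out both libraries that stood apart, and keeping both CXB-6/ByJ columns, were added after seeing the data. Python 3.11.15 with pandas 2.3.3 and numpy 2.4.6 was used.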

Additional observations from a re-analysis of the deposited data

How the results depend on the processing

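The count of genes that differed between CXB strains was 434, and 893 without the library labelled CXB-7/ByJ replicate 3 and CXB-3/ByJ replicate 3, and it was 2312 with all strains of the series in one fit. Leaving out 1 library at a time gave 345 to 677, with 677 without CXB-3/ByJ replicate 3. Keeping both CXB-6/ByJ columns as separate mice gave 584, and holding the pituitary and choroid plexus levels constant gave 302. The parental count of 493 became 951 with all strains in one fit and 281 to 359 with 1 library left out, the lowest without BALB/cJ replicate 1. The C57BL/6J contrast of 156 genes became 433 with all strains in one fit, 431 without the 2 libraries, and 78 to 260 with 1 left out: 78 without C57BL/6J replicate 3, 83 without replicate 2, 90 without replicate 1, 260 without CXB-3/ByJ replicate 3 and 252 without the library labelled CXB-7/ByJ replicate 3. The BALB/cJ contrast of 192 became 535, 442, and 79 to 302, with 79 without BALB/cJ replicate 2, 80 without replicate 1, 125 without replicate 3 and 302 without CXB-3/ByJ replicate 3. The median strain share of 0.0513 became 0.147 without the 2 libraries, and the 65 two-level genes became 122. With a least parental difference of 0.5 the 190 genes became 441 and the two-level genes 103. The fit with all strains took the spread from more samples, and the cause of the changes in these counts was not tested. Of 1542 values of named genes under the alternatives, 1450 kept their side of the threshold and 92 lost it, and 0 of the parental contrasts turned in direction. No paired analysis was possible because replicate numbers were given in accession order and name samples only. The FPKM hold no counts per gene, so the counting error of low FPKM was not computed.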
